A study of Mus musculus with 14 samples.

Results

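Interferon response genes are the genes that a cell switches on when an interferon binds its receptor. A list of 43 of them, chosen by gene symbol, was followed in fibroblasts of the infarcted mouse heart; 42 are named in the array annotation used here, out of 19505 genes in all, and 1 listed gene was not analysed here. Each of the 42 had a single row in the table. EGFP-positive cells of the Tcf21 lineage were sorted from the left ventricle, and after MI from its infarct area, of tamoxifen-treated TCF21-MerCreMer;R26GFP mice on a C57BL/6 background, and their gene expression was read on Clariom S Mouse arrays, 1 sample an array. Uninjured hearts gave 3 arrays. The infarct area after permanent ligation of the left coronary artery (myocardial infarction, MI) gave 3 arrays for 3 days, 3 for 7 days, 2 for 2 weeks and 3 for 4 weeks. All groups carry the same alleles and had the same tamoxifen labelling. MerCreMer is driven by the Tcf21 locus, so the label marks cells that used this locus when tamoxifen was given, whatever they express later. The labels call the arrays biological replicates and do not say how many hearts each holds, so p-values measure only the spread between these arrays. The labels give neither age nor sex.

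Interferons come in 3 types. Type I interferons, which include the many alpha forms and interferon beta, bind the receptor pair Ifnar1 and Ifnar2, which nearly all cells carry. Interferon gamma, made mainly by T and NK cells, binds Ifngr1 and Ifngr2. JAK kinases on the receptors phosphorylate STAT proteins. STAT complexes that contain Irf9 bind a short promoter element with 2 GAAA blocks, the interferon-stimulated response element, and other STAT dimers bind the gamma-activated site, TTC and GAA around a spacer of 3 bases. Many of the induced genes block viruses at a step of their life cycle, and in unstimulated cells a low, steady interferon signal keeps some of them expressed. In the infarcted heart, nucleic acids from dying cells are a known trigger of type I interferon in macrophages.

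Values are log2 signals as deposited, so a difference of 1 is a 2-fold change, and a gene was called at an adjusted p under 0.05 (limma, Benjamini-Hochberg over all 19505 genes). The background level was set at 6.04, below which 95% of the signals of 1412 olfactory and vomeronasal receptor genes lay, as heart cells are not known to use these genes. Array medians lay between 6.34 and 6.46 and arrays of a group correlated at 0.971 to 0.992. The 5 arrays numbered 1, 1 in each group, held 481 to 808 exactly equal values in each pair, against at most 2 in each of the other 81 pairs. They are here called an array set; 7081 genes (36.3%) differed between it and the other 9 arrays. Of the 42 interferon response genes 16 differed, 7 higher and 9 lower in the arrays numbered 1. In 4 arrays, both at 2 weeks, 1 of 3 at 7 days and 1 of 3 at 4 weeks, Y-linked genes were low. They were low in no uninjured or 3-day array. The comparison of 2 weeks with uninjured fibroblasts is therefore also a comparison of these 2 classes of array.

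Interferon response genes did not rise as a group in infarct fibroblasts. The 8 genes that fell at 3 days were Irf1, Irf9, Mx2, Irgm1, Iigp1, Cmpk2, Ifitm1 and Ifi35, and the nucleic acid sensor Zbp1 was the 1 that rose. This is 1 of 42 higher (2.38%) and 8 of 42 lower (19%), where 6.74% of all genes were higher and 5.82% lower (12.6% called). At 7 days 0 of 42 were higher and 8 of 42 lower, where 4.62% and 3.49% of all genes were (8.11% called). The 8 were Irf1, Irf9, Mx2, Irgm1, Iigp1, Cmpk2, Ifitm1 and Ifi35. At 2 weeks 0 were higher and 4 lower (9.52%), where 1.31% and 1.18% of all genes were (2.49% called), and the 4 were Mx2, Irgm1, Cmpk2 and Ifitm1. At 4 weeks 0 were higher and again 4 lower, where 0.995% and 0.918% of all genes were (1.91% called), and the 4 were Mx2, Irgm1, Iigp1 and Cmpk2. At an unadjusted p under 0.05, 3 of 42 were higher and 14 lower at 3 days (22.9% of all genes passed), 2 and 13 at 7 days (17.5%), then 0 and 15 at 2 weeks (12%), and finally 1 and 8 at 4 weeks (8.78%). All 4 comparisons use the same 3 uninjured arrays, so they are not independent of each other. In the F test over the 4 times 10 of 42 genes were called (23.8%), where 15.4% of all genes were. The median difference of the 42 genes from the uninjured mean was −0.23 for the 3-day, −0.35 for the 7-day, −0.58 for the 2-week and −0.30 for the 4-week arrays, and that of all genes lay between −0.02 and 0.02.

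**Figure D1:**
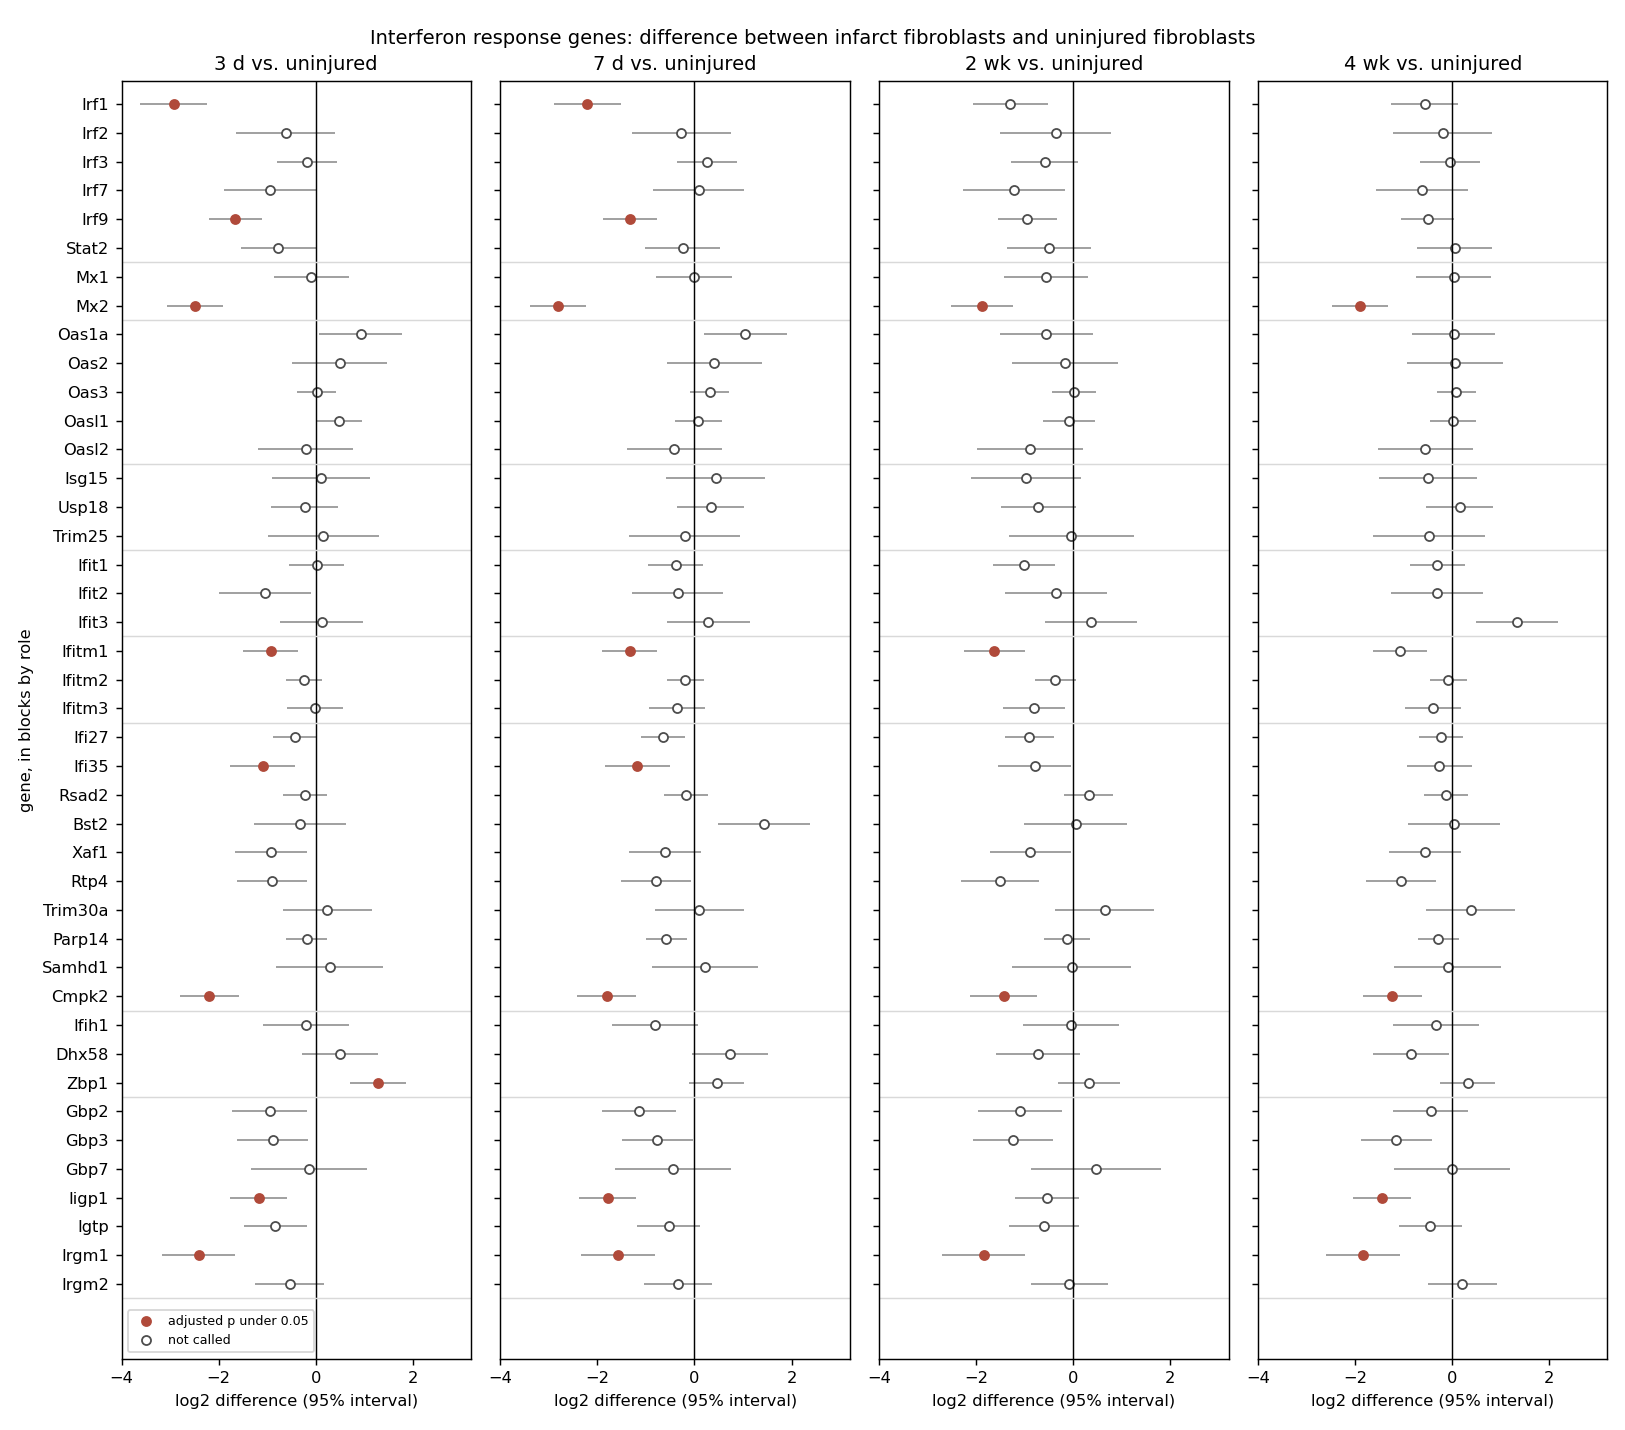
Difference in mean log2 signal between infarct and uninjured fibroblasts for the 42 interferon response genes, with a panel for each time after MI and genes in blocks by role; bars are 95% intervals and filled red points have an adjusted p under 0.05. The red points lie left of 0 except Zbp1 at 3 days, and the other points are open.

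Deviations from group means correlated positively in all 26 pairs of arrays with the same replicate number. Pairs with different numbers were not compared, so a pairing by number is not shown. A fit with the number as a block was run as well. It kept every call and added lower calls for Irf2 (adjusted p = 0.0383) and Ifit2 (0.0209) at 3 days, for Ifi27 (0.0171), Ifih1 (0.0194) and Gbp2 (0.0393) at 7 days, for Ifi27 (0.0214), Rtp4 (0.0165) and Gbp3 (0.0416) at 2 weeks and for Ifitm1 (0.0321) at 4 weeks, all by limma. These genes are named for the change of call. The counts lower under the block were 10 at 3 days (8.72% of all genes), 11 at 7 days (5.56%), then 7 at 2 weeks (2.1%), and finally 5 at 4 weeks (1.71%). With the array set as a block, an alternative chosen after the data were seen, 1 gene was higher and 11 lower at 3 days (10.6% and 9.05% of all genes), 1 higher and 11 lower at 7 days (7.23% and 5.82%), 0 higher and 7 lower at 2 weeks (2.45% and 2.52%) and 0 higher and 5 lower at 4 weeks (1.83% and 1.88%). The gene that it added as higher at 7 days was Bst2 (adjusted p = 0.0441). Without the 5 arrays numbered 1, 1 gene was higher and 10 lower at 3 days (8.93% and 8.25% of all genes), 1 and 9 at 7 days (5.64% and 5.5%), then 0 and 10 at 2 weeks (2.32% and 3.04%), and finally 0 and 5 at 4 weeks (1.23% and 1.25%). The share of all genes called was thus higher too in these fits. Within those 5 arrays all 24 lower calls had the same direction, by −0.37 to −3.26 on the log2 scale, with 1 array a group and no test. The calls come from a fit that includes these arrays, and every difference uses the same uninjured array. Their shared direction is therefore no independent evidence.

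Markers of other cell types moved with the times. Of 13 macrophage markers 11 were higher at 7 days, and the log2 of their summed signal was 9.3 to 9.82 in uninjured fibroblasts, 9.91 to 11.7 at 3 days, 13.3 to 15.7 at 7 days, then 10.2 to 11 at 2 weeks, and finally 9.24 to 10.2 at 4 weeks. Of the 13, 6 were at or under background in all uninjured arrays and 0 of them at 7 days. Of 7 endothelial markers 0 were higher and 2 lower at 3 days, with a summed level of 9.34 to 10.2 at 3 days and 12.3 to 12.6 in uninjured fibroblasts. The endothelial level was 10.7 to 12.1 at 7 days, 9.66 to 13 at 2 weeks and 10 to 11.4 at 4 weeks. Of 8 cardiomyocyte markers 3 were lower at 3 days, and 2 at 7 days, with a summed level of 9.49 to 9.87 at 3 days, 9.87 to 10.6 at 7 days, then 10 to 11 at 2 weeks, and finally 9.92 to 12.6 at 4 weeks, against 11.3 to 13.7 in uninjured fibroblasts. The cardiomyocyte level of every 3-day, 7-day and 2-week array lay below all uninjured arrays. The 3-day group had the lowest cardiomyocyte level, and among the genes that fell Irf1, Irf9, Cmpk2 and Irgm1 had their lowest means there. Mx2, Iigp1 and Ifi35 had theirs at 7 days and Ifitm1 at 2 weeks. None of the 10 lymphocyte markers and none of the 5 markers of plasmacytoid dendritic cells, the main makers of type I interferon in blood, passed the test against uninjured fibroblasts at any time (limma; at an unadjusted p under 0.05 the counts were 1 and 1 over the 4 times). Of 6 neutrophil markers 1 was higher at 7 days, and 3 to 5 were at or under background in each group. Of 6 pericyte and smooth muscle markers 1 was higher and 1 lower at 7 days and 1 higher at 4 weeks. In each group 8 or 9 of the 10 lymphocyte markers were at or under background. All 7 fibroblast markers stood above background in every group, with a summed level of 19.4 to 19.6 in uninjured fibroblasts and 19.2 to 19.9 in the infarct groups. The part of other cells in the changes below was not tested, and in sorted bulk RNA fewer cells of a type and less RNA per cell cannot be told apart.

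**Figure D2:**
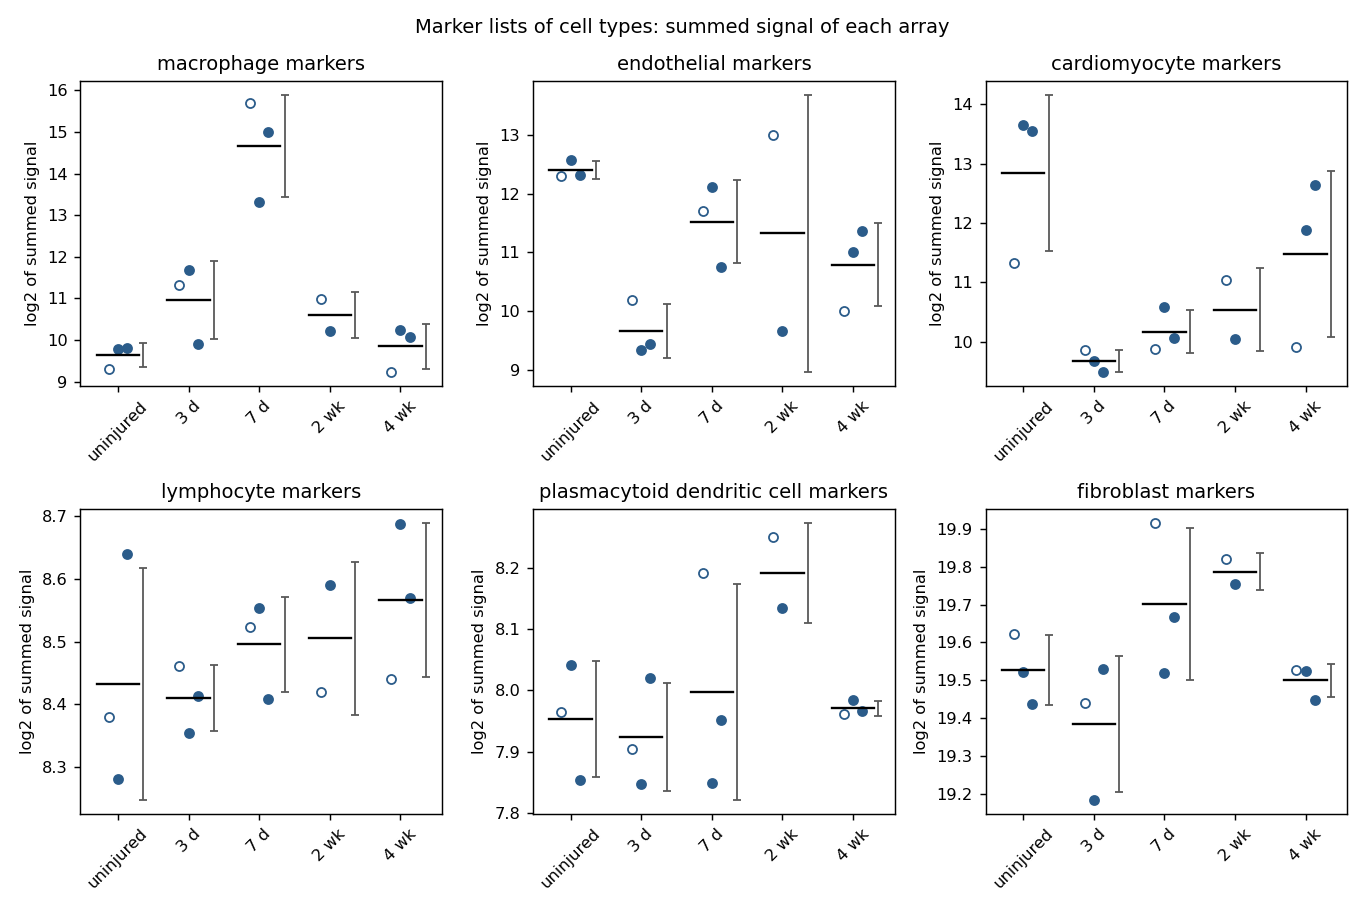
Log2 of the summed signal of 6 marker lists on each of the 14 arrays, by group; open circles are the arrays numbered 1, black lines are means and side bars SD, and each panel has its own scale. Macrophage markers peaked at 7 days, at 13.3 to 15.7, and cardiomyocyte markers were lowest at 3 days.

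Promoter sequence was taken from RefSeq (GRCm38.p6) for the 300 bases from 250 before to 50 after each start; 33 of the 43 listed genes matched. The letters of the response element, GAAA, any 2 bases and GAAA again, were sought on both strands and occurred in 19 of the 33 (57.6%), against 1079 of 27025 genes with a window (3.99%). The letters TTCNNNGAA of the gamma-activated site, which read alike on both strands, occurred in 11 of the 33 (33.3%), against 2582 of 27025 genes (9.55%). Of the 8 genes that fell, 6 had a window. Irgm1 was the 1 of these 6 with the letters of the response element, and Irf1 and Ifi35 had TTCNNNGAA. Of the other 34 measured genes 26 had a window, and 18 of those held the letters of the response element and 9 held TTCNNNGAA. These are letters in a window and say nothing on binding, and the genes were grouped after their values were seen, so no test was made. The stretches below show the elements beside the genes that fell (Irgm1, Irf1, Ifi35), the gene that was higher at 7 than at 3 days (Bst2) and 2 genes not called in any comparison in the fit without a block (Isg15, Gbp2). Each reads 5′ to 3′ on the gene's strand, with the matched letters in capitals.
Irgm1, chr11:48871425-48871460, minus strand, 2 overlapping matches that begin 30 bases before the start: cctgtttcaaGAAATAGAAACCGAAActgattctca
Irf1, chr11:53769914-53769942, plus strand, TTCNNNGAA that begins 90 bases before the start: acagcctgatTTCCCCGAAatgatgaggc
Ifi35, chr11:101448409-101448437, plus strand, TTCNNNGAA just after the start: agaagcagaaTTCACAGAAatgaaagtgg
Bst2, chr8:71537577-71537612, minus strand, 2 overlapping matches that begin 130 bases before the start: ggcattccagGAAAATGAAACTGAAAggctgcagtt
Isg15, chr4:156200865-156200906, minus strand, 3 overlapping matches that begin 78 bases before the start: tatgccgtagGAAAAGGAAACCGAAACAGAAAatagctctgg
Gbp2, chr3:142620594-142620623, plus strand, 1 match on the opposite strand that begins 59 bases before the start: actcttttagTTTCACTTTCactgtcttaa
Irgm1, Bst2 and Isg15 thus share runs of GAAA blocks at a spacing of 2 bases, and their signals took different courses after MI.

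Among the transcription factors, Irf1 and Irf9 fell and the other 4 did not pass the test. Irf1, an activator that interferon gamma induces through STAT binding and that itself drives many genes of the response, had signals of 11.06, 12.02 and 11.85 in uninjured fibroblasts, 8.59, 8.30 and 9.25 at 3 days, 9.58, 9.32 and 9.39 at 7 days, then 10.86 and 9.82 at 2 weeks, and finally 10.89, 11.10 and 11.24 at 4 weeks. The 3-day and 7-day arrays lay below every other array, the 2-week arrays lay between them and the uninjured ones, and the 4-week arrays overlapped with them. The difference was −2.93 ± 0.32 (SE) at 3 days, or 7.62-fold lower (limma adjusted p = 3.83e-05), and −2.21 ± 0.32 at 7 days, or 4.64-fold lower (adjusted p = 0.000552). It was −1.30 at 2 weeks (adjusted p = 0.0862) and −0.57 at 4 weeks (adjusted p = 0.739). Irf9, the DNA-binding subunit of the complex that carries the type I signal to the response element, had signals of 9.57, 10.14 and 10.10 in uninjured fibroblasts, 7.97, 8.22 and 8.67 at 3 days, 8.78, 8.92 and 8.13 at 7 days, then 9.12 and 8.86 at 2 weeks, and finally 9.44, 9.54 and 9.32 at 4 weeks. All 3-day and 7-day arrays lay below all uninjured ones, the 7-day arrays overlapped with the 3-day and 2-week arrays, and the 4-week arrays lay just below the uninjured ones. Irf9 was 3.15-fold lower at 3 days (−1.65 ± 0.26, adjusted p = 0.00061) and 2.5-fold lower at 7 days (−1.32 ± 0.26, adjusted p = 0.00464). The calls of Irf1 and Irf9 at 3 and 7 days held under all 25 alternatives. Irf7, the factor that amplifies type I interferon production, differed by −0.94 at 3 days and −1.22 at 2 weeks, with adjusted p = 0.22 and 0.308. Stat2, the partner of Irf9, differed by −0.77 at 3 days (adjusted p = 0.22), where 1 of the 3 arrays read 8.15 and the others 9.52 and 10.05. The differences of the 6 factors spanned −2.93 to −0.17 at 3 days and −0.62 to 0.05 at 4 weeks.

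Mx2 had the most negative difference of all measured members but Irf1 at 3 days, and was called at all 4 times. It is 1 of the 2 mouse Mx genes, of a family of dynamin-like GTPases known for blocking viral replication. Whether these mice make a working Mx2 protein was not examined. Its signals were 9.34, 9.33 and 8.95 in uninjured fibroblasts, 6.09, 7.09 and 7.02 at 3 days, 6.65, 6.24 and 6.31 at 7 days, then 7.27 and 7.37 at 2 weeks, and finally 7.18, 7.12 and 7.64 at 4 weeks. No infarct array reached the lowest uninjured array, and 3-day replicate 1 was close to the background level of 6.04. Mx2 was 5.57-fold lower at 3 days (−2.48 ± 0.27, adjusted p = 3.45e-05), 7.01-fold lower at 7 days (−2.81 ± 0.27, adjusted p = 1.85e-05), 3.7-fold lower at 2 weeks (−1.89 ± 0.30, adjusted p = 0.00307) and 3.73-fold lower at 4 weeks (−1.90 ± 0.27, adjusted p = 0.0014), by limma. The 2-week call was lost without 2-week replicate 1 (adjusted p = 0.0541) and with the Y-linked class as a block (0.152). Its neighbour Mx1, which many laboratory strains of mouse carry in a defective form, was under background on all 14 arrays.

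The interferon-inducible GTPases, which attack the vacuoles of intracellular parasites and bacteria, had 2 members that fell among the 7 measured. Irgm1, a regulator that keeps the other immunity-related GTPases off the cell's own membranes, had signals of 9.66, 9.87 and 10.06 in uninjured fibroblasts, 7.36, 8.06 and 6.93 at 3 days, 7.91, 8.91 and 8.04 at 7 days, then 8.46 and 7.57 at 2 weeks, and finally 8.43, 7.60 and 8.03 at 4 weeks. All 11 infarct arrays lay below the 3 uninjured arrays, and 3-day replicate 3 was the lowest. The difference was −2.41 ± 0.35 at 3 days (5.33-fold lower, adjusted p = 0.000394) and −1.57 ± 0.35 at 7 days (2.98-fold lower, adjusted p = 0.012). It stayed at −1.85 ± 0.39 at 2 weeks (adjusted p = 0.0214) and −1.84 ± 0.35 at 4 weeks (adjusted p = 0.0137). The later calls were less firm and were lost at 7 days without uninjured replicate 3 (0.0507) or 7-day replicate 3 (0.0589), at 2 weeks without uninjured replicate 2 (0.0702), uninjured replicate 3 (0.0825) or 2-week replicate 2 (0.338) and at 4 weeks without uninjured replicate 2 (0.0559), uninjured replicate 3 (0.066) or 4-week replicate 2 (0.0673), where the value in parentheses is the adjusted p left after removal of that array. Iigp1, an effector GTPase that coats and breaks parasite vacuoles, had signals of 10.49, 10.13 and 9.81 in uninjured fibroblasts, 8.97, 9.18 and 8.75 at 3 days, 8.56, 8.43 and 8.06 at 7 days, then 10.14 and 9.06 at 2 weeks, and finally 8.72, 8.74 and 8.62 at 4 weeks. It was below all uninjured arrays at 3 days, 7 days and 4 weeks, and 2-week replicate 1 read as high as an uninjured array. Iigp1 was 2.26-fold lower at 3 days (−1.18 ± 0.27, adjusted p = 0.0105), 3.46-fold lower at 7 days (−1.79 ± 0.27, adjusted p = 0.000833) and 2.73-fold lower at 4 weeks (−1.45 ± 0.27, adjusted p = 0.0128). The 4-week call was lost without uninjured replicate 2 (0.0502) or 4-week replicate 3 (0.0516). The 2-week difference was −0.55, with a 95% interval from −1.21 to 0.11. All 7 GTPases had differences below 0 at 3 and 7 days, with a median of −0.89 at 3 days and −0.77 at 7 days. Gbp2 and Gbp3, guanylate-binding proteins, differed by −1.14 at 7 days (adjusted p = 0.0731) and −1.25 at 2 weeks (adjusted p = 0.131); with the replicate number as a block these were 0.0393 and 0.0416.

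Cmpk2, a mitochondrial nucleotide kinase that supplies precursors of mitochondrial DNA, had signals of 9.998, 9.70 and 10.003 in uninjured fibroblasts, 7.08, 8.25 and 7.80 at 3 days, 7.97, 8.42 and 7.87 at 7 days, then 8.77 and 8.15 at 2 weeks, and finally 8.82, 8.67 and 8.504 at 4 weeks. All 11 infarct arrays lay below the uninjured ones, and the gap was widest at 3 days. The difference was −2.19 ± 0.29 at 3 days (4.56-fold lower, adjusted p = 0.00016), −1.81 ± 0.29 at 7 days (adjusted p = 0.00104), then −1.44 ± 0.32 at 2 weeks (adjusted p = 0.0269) and −1.23 ± 0.29 at 4 weeks (adjusted p = 0.0424). The 2-week call was lost without uninjured replicate 2 (0.0561), uninjured replicate 3 (0.0939), 2-week replicate 1 (0.0688) or 2-week replicate 2 (0.364). It was also lost with the Y-linked class as a block (0.121). The 4-week call was lost without uninjured replicate 1 (0.101), uninjured replicate 2 (0.0877), uninjured replicate 3 (0.154), 3-day replicate 3 (0.0633), 7-day replicate 1 (0.0527), 7-day replicate 3 (0.0574), 4-week replicate 1 (0.081), 4-week replicate 2 (0.124) or 4-week replicate 3 (0.151). Rsad2, the antiviral enzyme next to Cmpk2 in the genome, was under background on all 14 arrays.

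**Figure D3:**
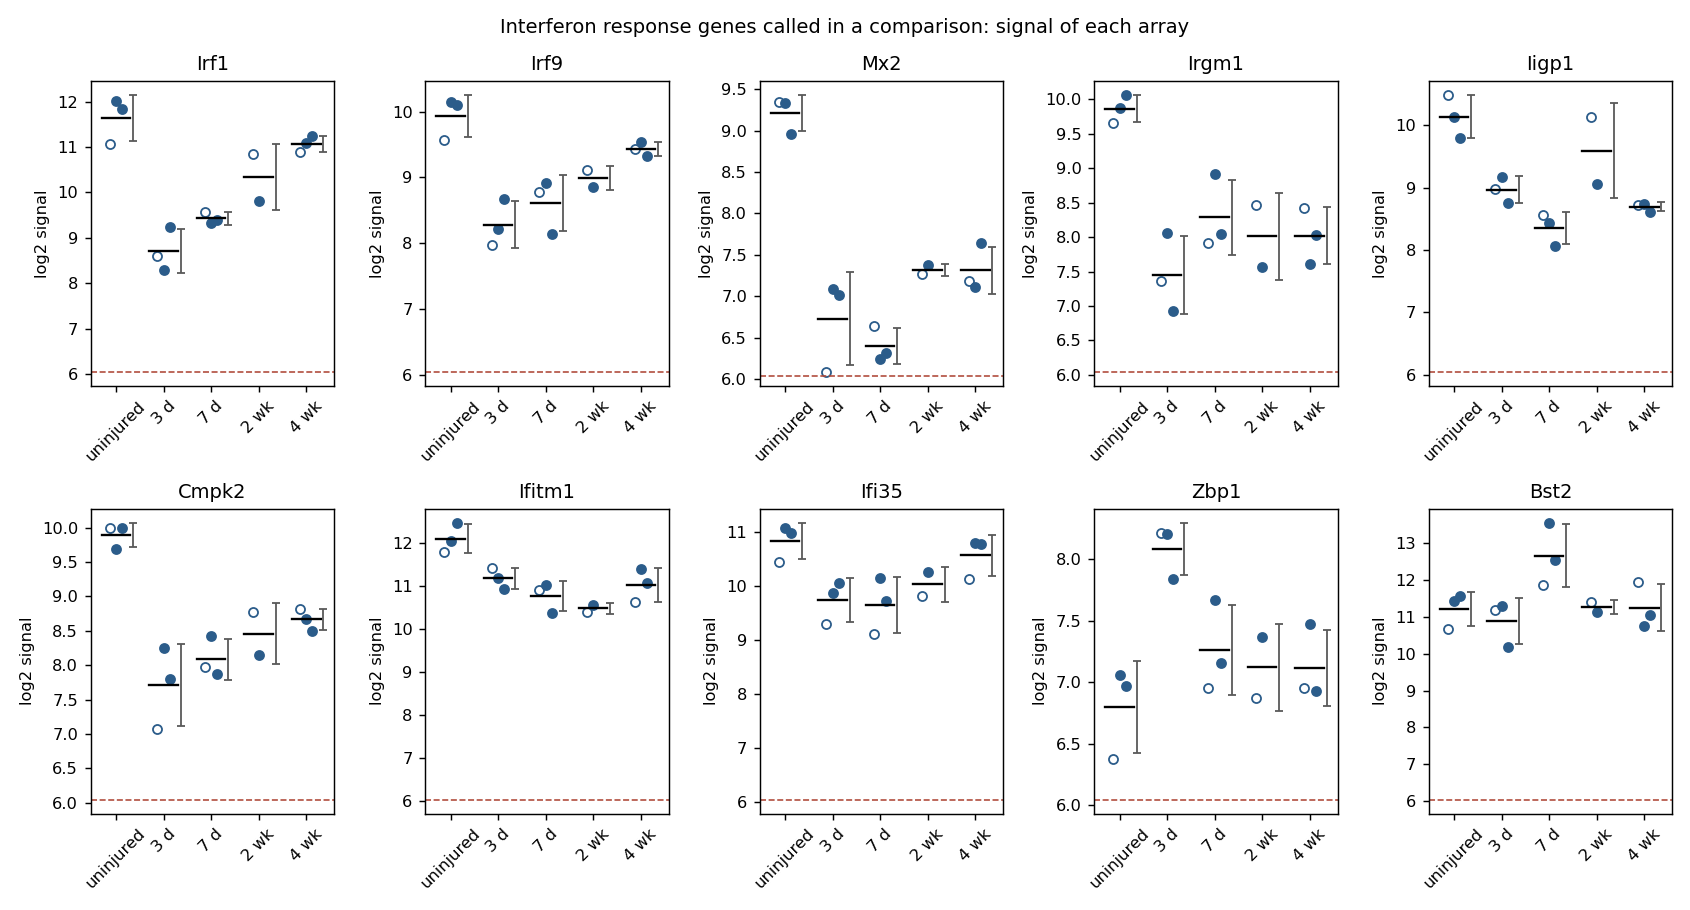
Log2 signal on each of the 14 arrays, by group, of the 10 interferon response genes called in a comparison with uninjured fibroblasts or between neighbouring times; open circles are the arrays numbered 1, black lines are means, side bars SD and the red dashed line the background level of 6.04. Each panel has its own scale. Irf1 and Irf9 came back towards the uninjured level by 4 weeks, Mx2 and Irgm1 stayed low, Zbp1 peaked at 3 days and Bst2 at 7 days.

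Ifitm1, a membrane protein that hinders the fusion of enveloped viruses, had signals of 11.81, 12.05 and 12.49 in uninjured fibroblasts, 11.43, 11.19 and 10.94 at 3 days, 10.91, 11.04 and 10.39 at 7 days, then 10.40 and 10.57 at 2 weeks, and finally 10.63, 11.41 and 11.07 at 4 weeks. Every infarct array was below every uninjured array, and 7-day replicate 3 and both 2-week arrays read 10.39 to 10.57. Ifitm1 was 1.9-fold lower at 3 days (−0.93 ± 0.26, adjusted p = 0.0316), 2.52-fold lower at 7 days (−1.33 ± 0.26, adjusted p = 0.00497) and 3.09-fold lower at 2 weeks (−1.63 ± 0.29, adjusted p = 0.00749). At 4 weeks the difference was −1.08 (adjusted p = 0.0562, and 0.0321 with the replicate number as a block). The 3-day call was lost without uninjured replicate 2 (0.0746), uninjured replicate 3 (0.139), 3-day replicate 2 (0.0866) or 3-day replicate 3 (0.113). The 2-week call was lost without 2-week replicate 1 (0.108) or 2-week replicate 2 (0.0725), and with the Y-linked class as a block (0.213). The paralogs Ifitm2 and Ifitm3 did not pass the test. Ifitm2 ranged from 16.22 to 16.77 over all 14 arrays and differed by at most −0.37 (95% interval −0.79 to 0.06, at 2 weeks), and Ifitm3 differed by at most −0.81 (95% interval −1.46 to −0.17, at 2 weeks). The 3 genes are close in sequence, and probes that could take up signal of a paralog were not examined. Ifi35, a cytosolic protein that pairs with Nmi, had signals of 10.44, 11.07 and 10.99 in uninjured fibroblasts, 9.29, 9.87 and 10.06 at 3 days, 9.11, 10.14 and 9.72 at 7 days, then 9.81 and 10.27 at 2 weeks, and finally 10.13, 10.79 and 10.78 at 4 weeks. Its 3-day and 7-day arrays lay below all uninjured arrays, and the 4-week arrays overlapped with them. Ifi35 was 2.14-fold lower at 3 days (−1.10 ± 0.31, adjusted p = 0.0325) and 2.26-fold lower at 7 days (−1.18 ± 0.31, adjusted p = 0.031). These calls were lost at 3 days without uninjured replicate 2 (0.126), uninjured replicate 3 (0.109), 3-day replicate 1 (0.142) or 3-day replicate 2 (0.0693), and at 7 days without uninjured replicate 2 (0.129), uninjured replicate 3 (0.105), 7-day replicate 1 (0.112) or 7-day replicate 3 (0.0804). Both were also lost under quantile normalization (0.0564 at 3 days, 0.0775 at 7 days) and without moderation (0.0736 and 0.0793). The 7-day call was lost as well in a fit of only the 2 groups (0.079) and with the Y-linked class as a block (0.0629). Ifi35 was among the genes that differed between the array sets. Of the other effectors, Rtp4, a chaperone for receptor transport with antiviral activity, differed by −1.50 at 2 weeks (adjusted p = 0.0525, and 0.0165 with the block). Xaf1, a proapoptotic antagonist of Xiap, differed by −0.92 at 3 days (adjusted p = 0.108).

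Zbp1, a sensor of left-handed nucleic acid that can start necroptosis, rose. Its signals were 6.37, 7.06 and 6.97 in uninjured fibroblasts, 8.21, 8.20 and 7.84 at 3 days, 6.95, 7.67 and 7.16 at 7 days, then 6.87 and 7.37 at 2 weeks, and finally 6.95, 7.47 and 6.93 at 4 weeks. The 3-day arrays were above all other arrays, and the other infarct groups overlapped with the uninjured arrays. Zbp1 averaged 8.08 ± 0.21 at 3 days and 6.80 ± 0.37 in uninjured fibroblasts (SD, n = 3 each), a 2.44-fold rise (1.28 ± 0.26, limma adjusted p = 0.00479) that held under all 25 alternatives. Later differences were 0.46, 0.32 and 0.32, with adjusted p = 0.445 at 7 days, 0.799 at 2 weeks and 0.949 at 4 weeks. Dhx58, a regulator of the RNA helicase sensors, was called in no comparison with uninjured fibroblasts but in the F test over the 4 times (adjusted p = 0.0228). Its signals were 6.79, 7.56 and 7.90 in uninjured fibroblasts, 7.67, 8.29 and 7.81 at 3 days, 7.50, 9.001 and 7.95 at 7 days, then 6.71 and 6.66 at 2 weeks, and finally 6.40, 6.45 and 6.86 at 4 weeks. The 3-day and 7-day arrays ran from 7.50 to 9.001 and the 2-week and 4-week arrays from 6.40 to 6.86, with the uninjured arrays between 6.79 and 7.90. The helicase sensor Ifih1 differed by at most −0.81, at 7 days (adjusted p = 0.349, and 0.0194 with the replicate number as a block).

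Bst2 (tetherin), a surface protein that holds budding virus on the cell, was the 1 member called between neighbouring times. Its signals were 10.68, 11.42 and 11.55 in uninjured fibroblasts, 11.18, 11.31 and 10.18 at 3 days, 11.86, 13.56 and 12.54 at 7 days, then 11.40 and 11.14 at 2 weeks, and finally 11.95, 10.75 and 11.05 at 4 weeks. All 3 of the 7-day arrays were above all 3-day arrays, and 7-day replicate 2 was the highest. Bst2 averaged 12.65 ± 0.85 at 7 days and 10.89 ± 0.62 at 3 days (SD, n = 3 each), 3.4-fold higher (1.76 ± 0.44, limma adjusted p = 0.0282), where 3.35% of all genes were higher and 3.14% lower (6.49% called). Against uninjured fibroblasts the 7-day difference was 1.43 (adjusted p = 0.0668, 0.0501 with the replicate number and 0.0441 with the array set as a block). The call between 7 and 3 days was lost without 3-day replicate 1 (0.0561), 3-day replicate 3 (0.113), 7-day replicate 2 (0.114) or 7-day replicate 3 (0.0795). Macrophages express Bst2 after interferon, and the macrophage markers were at 13.3 to 15.7 at 7 days and 9.91 to 11.7 at 3 days; their part in this difference was not tested. The macrophage level was highest on 7-day replicate 1 and Bst2 on 7-day replicate 2.

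No listed gene of the oligoadenylate synthetase, ISG15 and IFIT groups, which interferon induces strongly in many cells, was called higher after MI. Mx1, Oas3, Oasl1 and Rsad2 were at or under background on all 14 arrays, and Oas2 was above it on 1 array, 7-day replicate 2, at 6.05. Of the 5 genes of the oligoadenylate synthetase family, some of which make the activator of RNase L, none passed the test against uninjured fibroblasts (limma). At an unadjusted p under 0.05, 2 were higher at 3 days and 1 at 7 days. Oas1a was under background on all uninjured, 2-week and 4-week arrays, so its differences have only a bound. It was at least 1.62-fold higher at 3 days and at least 1.76-fold higher at 7 days than in uninjured fibroblasts, set at the background level, and did not pass the test (adjusted p = 0.174 and 0.159). The related Oasl2 differed by −0.89 at 2 weeks (adjusted p = 0.575). Isg15, the ubiquitin-like protein that cells under interferon attach to other proteins, had signals of 7.20, 7.51 and 7.49 in uninjured fibroblasts, 6.71, 8.28 and 7.55 at 3 days, 6.66, 8.68 and 8.16 at 7 days, then 6.05 and 6.79 at 2 weeks, and finally 6.50, 7.05 and 7.16 at 4 weeks. Its 3-day and 7-day arrays lay on both sides of the uninjured ones, below them on the arrays numbered 1 and above them on the others. Like Ifi35, Isg15 was among the genes that differed between the array sets, lower in the arrays numbered 1 (−0.93, limma adjusted p = 0.0029). The difference of Isg15 was 0.11 at 3 days, with a 95% interval from −0.90 to 1.13, and 0.43 at 7 days, with an interval from −0.58 to 1.45. Usp18, which removes Isg15 and dampens the receptor, differed by 0.34 at 7 days (interval −0.36 to 1.03) and −0.72 at 2 weeks (interval −1.50 to 0.05). The 3 IFIT genes, whose proteins bind foreign RNA ends, differed by −1.04 to 0.12 at 3 days and −0.39 to 0.29 at 7 days. Ifit3 was 1.33 ± 0.40 at 4 weeks (adjusted p = 0.147), and Ifit2 −1.04 ± 0.44 at 3 days (adjusted p = 0.161, and 0.0209 with the replicate number as a block).

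Single arrays differed in which interferon response genes they held. Of the 38 genes above background on at least 1 array, 21 were highest on 1 of the 3 uninjured arrays and 17 on 1 of the 11 infarct arrays. The same count was not made over all genes, so it is not known whether these counts are particular to the list. Of these 17, 9 were highest on 7-day replicate 2: Irf3, Irf7, Oas1a, Oas2, Oasl2, Isg15, Usp18, Bst2 and Dhx58. On this array Isg15 read 8.68, Usp18 10.26 and Irf7 9.54, where the other 7-day arrays read 6.66 and 8.16, 9.17 and 9.05, and 7.74 and 8.29. The genes that fell were below all uninjured arrays on it, with Mx2 at 6.24 and Irf1 at 9.32. Irgm1, at 8.91, had its highest infarct value there. Irf9 (8.92), Cmpk2 (8.42), Ifitm1 (11.04) and Ifi35 (10.14) were also higher on it than on the other 7-day arrays. Of the 9 arrays not numbered 1, 7-day replicate 2 was the highest for 10 of the 38 genes and uninjured replicate 2 for 14. Its macrophage level of 13.3 was the lowest of the 3 arrays at 7 days. The median difference of the 38 genes from the uninjured mean was below 0 on all 11 infarct arrays, at −0.13 on 7-day replicate 2 and between −0.76 and −0.31 on the other 10. On the uninjured arrays it was −0.20, 0.12 and 0.15, so 7-day replicate 2 lay within their range. The same median over all genes was not computed for single arrays.

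**Figure D4:**
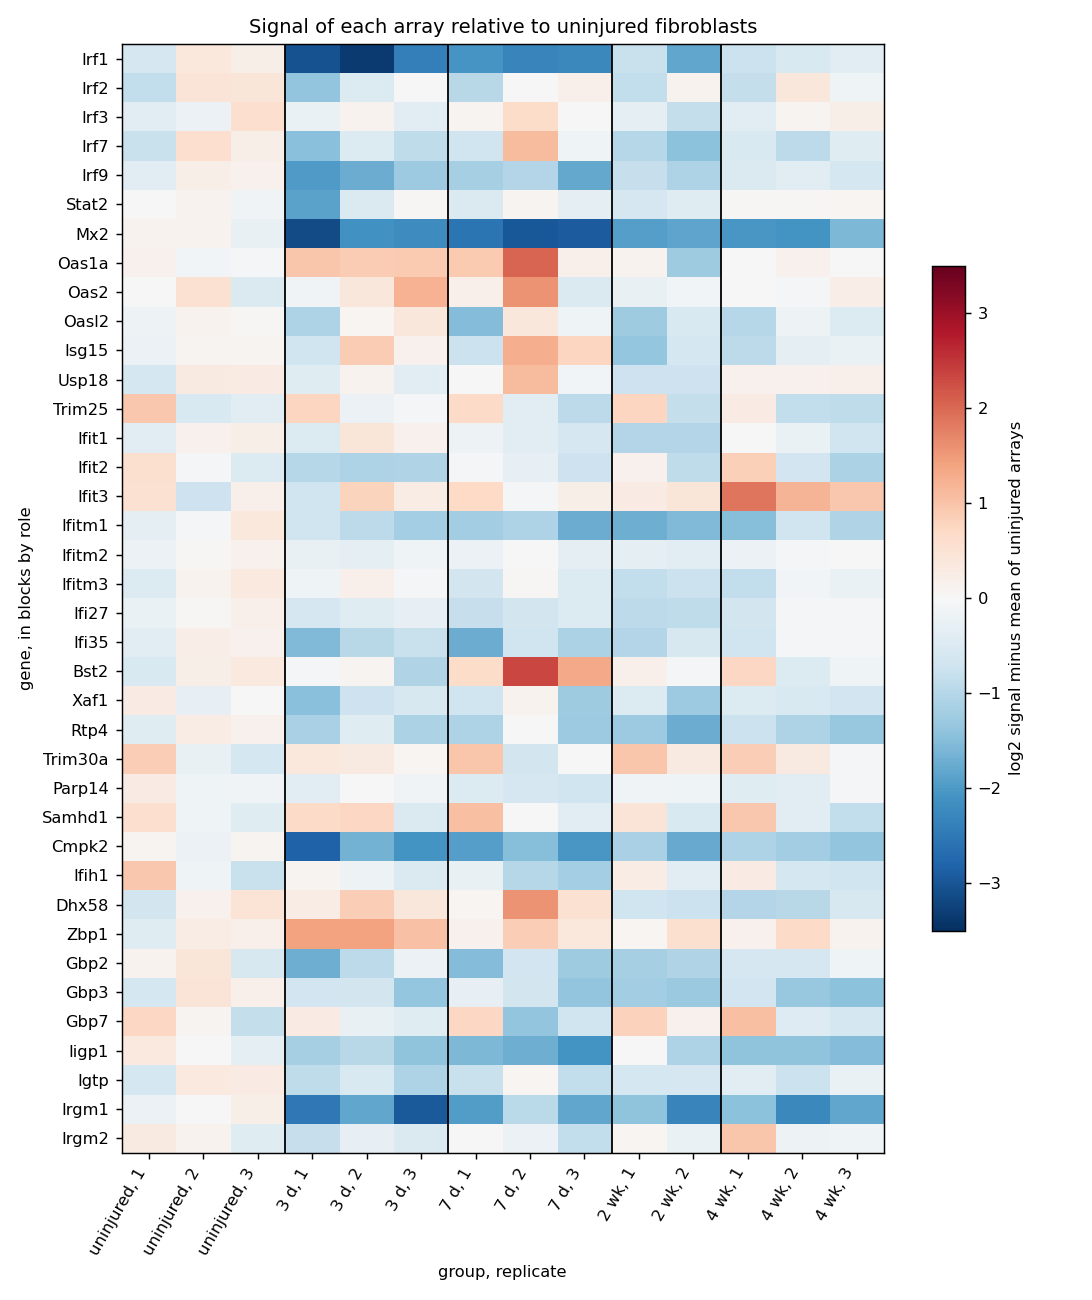
Log2 signal of each array minus the mean of the 3 uninjured arrays for the 38 interferon response genes above background on at least 1 array, with arrays in columns by group and genes in blocks by role. Blue bands at Irf1, Mx2, Cmpk2 and Irgm1 run through the 3-day and 7-day arrays, and the column of 7-day replicate 2 shows red cells at Irf7, Oas1a, Isg15, Usp18, Bst2 and Dhx58.

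Between neighbouring times few members differed. From 7 days to 2 weeks 0 of 42 were called and from 2 to 4 weeks again 0 of 42, where 1.59% (0.4% higher, 1.19% lower) and 0.0256% (0.0103% higher, 0.0154% lower) of all genes were. At an unadjusted p under 0.05 the counts were 10 and 5 of 42, where 13.8% and 4.87% of all genes passed (limma). With the replicate number as a block 4 genes were called from 7 days to 2 weeks, 1 higher and 3 lower, where 1.59% of all genes were higher and 2.73% lower. Oas1a, under background at 2 weeks (at least 1.76-fold, adjusted p = 0.0461 with the block and 0.0943 without), Isg15 (−1.42, 0.0409 and 0.23) and Dhx58 (−1.47, 0.0377 and 0.0926) were lower at 2 weeks, and Iigp1 (1.24, 0.0279 and 0.0618) was higher. The block also called Zbp1 lower at 7 than at 3 days (−0.83, 0.0134 and 0.0874), where 6.5% of all genes were lower. Fibroblasts of the 4-week scar were set against those at 3 days in a comparison added after the data were seen, where 5.86% of all genes were higher and 6.86% lower (12.7% called), and 3 of 42 members were higher and 2 lower. Irf1 was 5.14-fold higher at 4 weeks than at 3 days (2.36 ± 0.32, adjusted p = 0.00024), Irf9 2.22-fold (1.15 ± 0.26, adjusted p = 0.00847) and Cmpk2 1.94-fold (0.96 ± 0.29, adjusted p = 0.0415). Dhx58 (−1.35, adjusted p = 0.0243) and Zbp1 (−0.97, adjusted p = 0.0271) were lower. Mx2 differed by 0.58 (95% interval 0.00481 to 1.16, adjusted p = 0.212) and Irgm1 by 0.57 (95% interval −0.19 to 1.33, adjusted p = 0.397). Thus Irf1 and Irf9 were higher again in the scar than at 3 days, and for Mx2 and Irgm1 such a change did not pass the test. The calls of Cmpk2, Dhx58 and Zbp1 did not hold without some arrays. Cmpk2 was lost without uninjured replicate 2 (0.0527), uninjured replicate 3 (0.0535), 3-day replicate 1 (0.182), 3-day replicate 3 (0.0768), 7-day replicate 3 (0.0517), 4-week replicate 1 (0.107), 4-week replicate 2 (0.11) or 4-week replicate 3 (0.0724). Dhx58 was lost without 3-day replicate 2 (0.109), 3-day replicate 3 (0.0502), 4-week replicate 1 (0.0653) or 4-week replicate 2 (0.0847). Zbp1 was lost without 3-day replicate 1 (0.0931), 3-day replicate 2 (0.0972), 4-week replicate 1 (0.0783) or 4-week replicate 3 (0.104). Without the 5 arrays numbered 1, Cmpk2 (0.203) and Zbp1 (0.0681) were lost as well. Cmpk2 was also lost with the Y-linked class as a block (0.103), in a fit of only the 2 groups (0.0915) and with another prior (0.0542). Without moderation Cmpk2 (0.0785), Dhx58 (0.0682) and Zbp1 (0.0507) were all lost.

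No interferon gene was called in any comparison. Of the 10 ligand genes measured, Ifnb1, Ifna2, Ifna4, Ifnk and Ifne were at or under background on all 14 arrays. Ifna1 ran from 6.19 to 7.15, Ifna5 from 7.27 to 8.22, Ifnl2 from 6.00 to 6.67 and Ifnl3 from 7.07 to 8.05, and the uninjured arrays overlapped with the infarct arrays for each of them. Interferon gamma, Ifng, ran from 5.09 to 6.85 and was above background on 8 of 14 arrays. Of the 10 ligands, 0 had an unadjusted p under 0.05 at any of the 4 times. The receptor genes were expressed. Ifnar1 ran from 10.71 to 11.69 and Ifnar2 from 14.39 to 15.24 over the 14 arrays, and neither was called. None of the 6 receptor genes passed the test (limma; at an unadjusted p under 0.05, 0 higher and 1 lower at 3 days, 1 and 2 at 7 days, then 0 and 1 at 2 weeks, and finally 0 and 2 at 4 weeks). Ifngr1 read 10.51, 10.49 and 9.97 in uninjured fibroblasts, 9.26, 9.33 and 9.43 at 3 days, 10.28, 8.99 and 9.14 at 7 days, then 10.35 and 9.96 at 2 weeks, and finally 10.42, 9.76 and 9.54 at 4 weeks. It was lowest at 3 days and on 2 of the 7-day arrays, with a difference of −0.99 ± 0.33 at 3 days (adjusted p = 0.0671). Ifngr2 differed by 0.71 ± 0.23 at 7 days (adjusted p = 0.0763). Of the receptor for lambda interferons, Ifnlr1 was under background on all arrays, and Il10rb, which the IL-10 family also uses, differed by −1.18 ± 0.30 at 2 weeks (adjusted p = 0.0576). Of 6 genes that interferon gamma induces, the chemokines Cxcl9, Cxcl10, Cxcl11 and Ccl5, the MHC class II activator Ciita and the checkpoint ligand Cd274, none was called (limma, 0 of 6 at each time; at an unadjusted p under 0.05, 0 at 3 days and 1 lower at each later time), and Cxcl11 and Ccl5 were under background on all arrays.

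Signal transducers and regulators around the list moved in both directions. Of 6 kinases and partner factors measured, Irf8 fell at all 4 times and Jak2 rose at 3 days. Irf8, a factor of myeloid cells and of the interferon gamma response, had signals of 8.02, 7.45 and 7.88 in uninjured fibroblasts, 5.88, 5.67 and 6.28 at 3 days, 6.55, 5.96 and 5.81 at 7 days, then 6.63 and 6.29 at 2 weeks, and finally 6.56, 6.52 and 6.303 at 4 weeks. All infarct arrays were below the uninjured ones and 4 of them were under background. Irf8 differed by −1.84 at 3 days (adjusted p = 0.000202), −1.68 at 7 days (0.000626), then −1.33 at 2 weeks (0.0193) and −1.32 at 4 weeks (0.0119). Irf8 was low at 7 days, when macrophage markers were at their highest, and the part of other cells in its change was not tested. Jak2, a kinase of the interferon gamma receptor, was 2.87-fold higher at 3 days (1.52 ± 0.44, adjusted p = 0.0378), at 10.98 to 11.93 in 3-day arrays and 9.55 to 10.48 in uninjured arrays. Socs1, a feedback inhibitor that interferon induces, had signals of 6.77, 8.94 and 7.95 in uninjured fibroblasts, 5.36, 5.11 and 5.07 at 3 days, 5.75, 5.04 and 6.63 at 7 days, then 5.68 and 6.51 at 2 weeks, and finally 5.86, 7.06 and 7.41 at 4 weeks. It was under background on all 3-day arrays and on 2 of the 3 arrays at 7 days. Socs1 was at least 3.59-fold lower at 3 days, with 3-day values raised to the background level (fitted difference −2.71, adjusted p = 0.0035), and the fitted difference was −2.08 at 7 days (adjusted p = 0.0271). Of the other 4 negative regulators, the phosphatase gene Ptpn6 was called at 7 days with every array under background, so no fold is given, and Ptpn2 was lower at 7 than at 3 days (−1.71 ± 0.40, adjusted p = 0.0189).

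Nucleic acid sensors and their adaptors had 2 of 13 genes higher and 0 lower at 3 days and again 2 of 13 higher and 0 lower at 7 days (15.4% each), where 6.74% of all genes were higher at 3 days and 4.62% at 7 days. Sting1, the adaptor of the DNA-sensing pathway that leads to type I interferon, had signals of 9.81, 10.04 and 9.54 in uninjured fibroblasts, 12.24, 12.14 and 11.99 at 3 days, 11.37, 12.19 and 11.57 at 7 days, then 10.21 and 9.73 at 2 weeks, and finally 9.84, 10.13 and 10.82 at 4 weeks. The 3-day and 7-day arrays stood above all others. Sting1 was 5-fold higher at 3 days (2.32 ± 0.28, adjusted p = 9.18e-05) and 3.76-fold higher at 7 days (1.91 ± 0.28, adjusted p = 0.000615), and fell to 9.97 at 2 weeks, against 11.71 at 7 days (adjusted p = 0.0128). Cgas, the enzyme that makes the messenger for Sting1, was above background on 1 of the 3-day arrays, at 7.00, and on no other array, and its 3-day mean was 1.1 times the background level (adjusted p = 0.048 against uninjured fibroblasts). Tlr7, an endosomal RNA receptor of macrophages and plasmacytoid dendritic cells, read 9.64, 7.06 and 7.72 at 7 days and 4.99, 5.52 and 5.79 in uninjured fibroblasts. It was at least 4.28-fold higher at 7 days against the background level (adjusted p = 0.00848), and like the macrophage markers it was highest on 7-day replicate 1; their part in it was not tested. A further list of 37 interferon-stimulated genes had 1 gene higher and 4 lower at 3 days, 0 and 5 at 7 days, then 0 and 2 at 2 weeks, and finally 0 and 1 at 4 weeks. The shares lower were 10.8% at 3 days (5.82% of all genes), 13.5% at 7 days (3.49%), then 5.41% at 2 weeks (1.18%), and finally 2.7% at 4 weeks (0.918%), and the share higher at 3 days was 2.7% (6.74% of all genes). The gene that was higher at 3 days was Mov10, an RNA helicase that restrains retrotransposons, named here because it was the only one. Mov10 averaged 9.68 ± 0.47 at 3 days and 8.42 ± 0.24 in uninjured fibroblasts (SD, n = 3 each), 2.41-fold higher (1.27 ± 0.30, limma adjusted p = 0.0121). Ifi27l2a, a small membrane protein, read 8.26, 9.02 and 9.61 in uninjured fibroblasts, 6.41, 5.90 and 7.12 at 3 days, 6.55, 8.11 and 6.82 at 7 days, then 6.77 and 6.60 at 2 weeks, and finally 7.33, 7.21 and 7.25 at 4 weeks. It was 5.61-fold lower at 3 days (−2.49 ± 0.42, adjusted p = 0.00111) and lower at 7 days and 2 weeks as well (adjusted p = 0.0146 and 0.0176). Sp100, a component of PML nuclear bodies, was 2.47-fold lower at 3 days (adjusted p = 0.00312) and 2.45-fold lower at 7 days (adjusted p = 0.00499). Ifi204, a DNA-binding member of the p200 family, read 12.91 to 13.57 in uninjured and 13.05 to 13.38 in 3-day arrays, and was 2.87-fold lower at 7 days and 2.88-fold lower at 4 weeks than in uninjured fibroblasts (adjusted p = 0.00428 and 0.0135). Tor3a, an ATPase of the endoplasmic reticulum, was 1.77-fold lower at 3 days (adjusted p = 0.00623). The members of these lists were written down with earlier results of these arrays known and are no independent evidence.

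**Figure D5:**
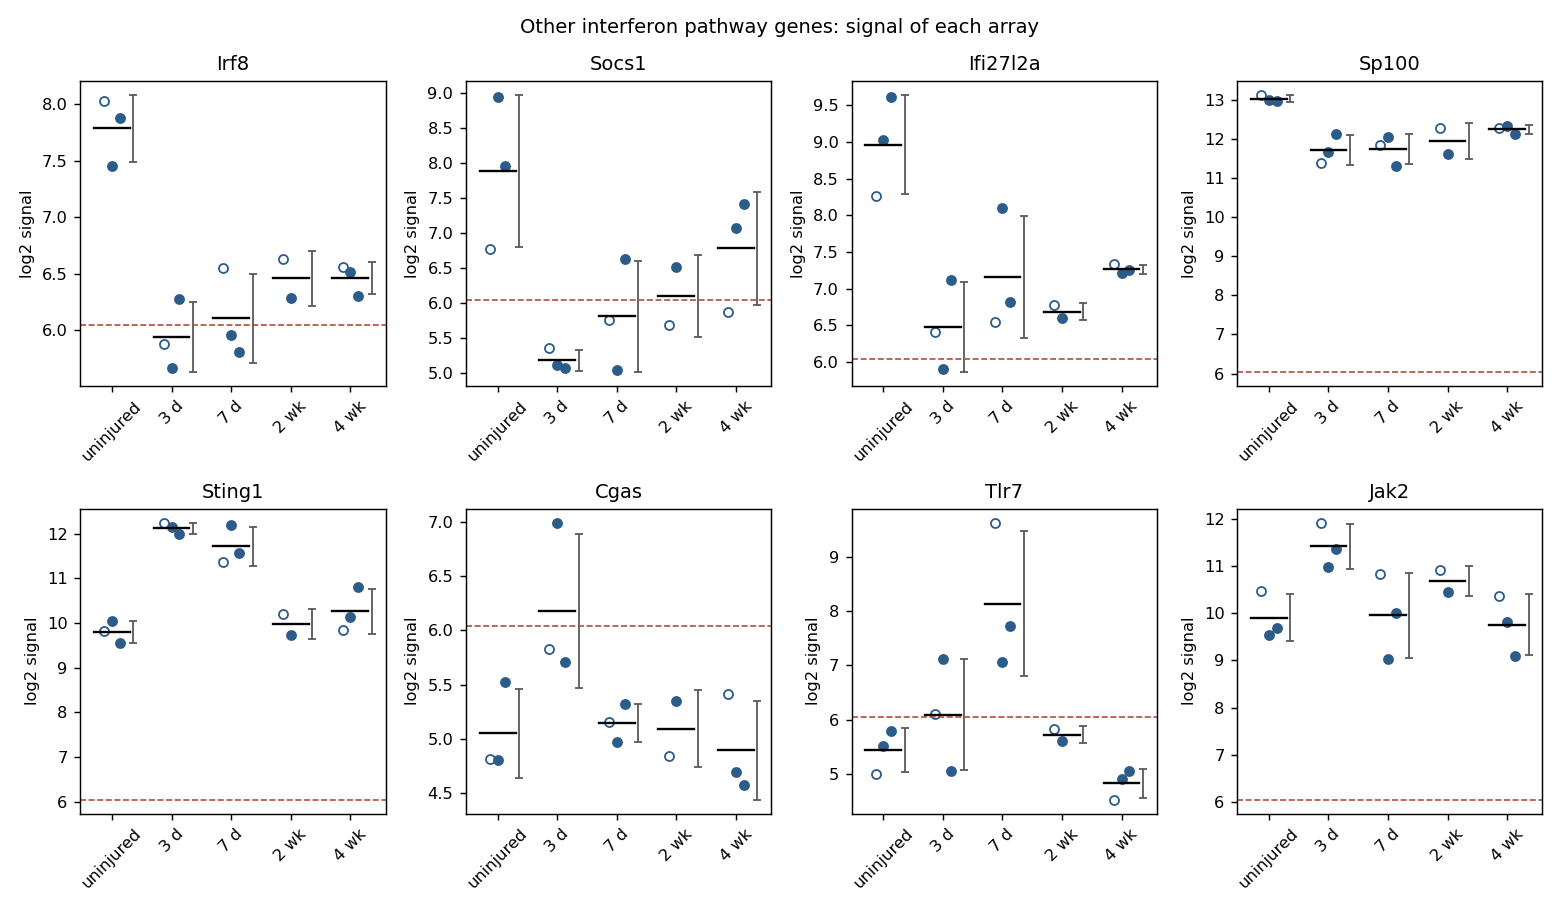
Log2 signal on each of the 14 arrays, by group, of 8 genes of the interferon pathway outside the list of 43; open circles are the arrays numbered 1, black lines are means, side bars SD and the red dashed line the background level of 6.04. Each panel has its own scale. Irf8 was lower at all 4 times, Ifi27l2a at 3 days, 7 days and 2 weeks, and Socs1 and Sp100 at 3 and 7 days, Sting1 was higher at 3 and 7 days, and Tlr7 was high at 7 days.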

How the data were processed

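RNA of EGFP-positive Tcf21-lineage cells was labelled with a 3' IVT kit for 14 Clariom S Mouse arrays. The values are gene-level log2 signals as the authors deposited them; the submitters' processing notes name Affymetrix Expression Console, and the summarization method and genome build are not given in the sources used here. Of 28846 rows 6640 were controls, 19572 had 1 gene symbol and 2634 transcript clusters were not named here; for 55 genes with several rows the one with the highest mean was kept, which left 19505 genes. Nothing further was normalized. The number of arrays limits the precision.

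The 5 group means of every gene were estimated together (limma 3.58.1, R 4.3.3; 9 degrees of freedom from residuals, 4.53 from the prior), and genes were called at a Benjamini-Hochberg adjusted p under 0.05 over all genes. Each time was compared with uninjured fibroblasts and with the time before. Genes at or under 6.04 on all arrays of a group get a fold only as a bound. Between arrays with the same replicate number the correlation of deviations from group means was 0.119 to 0.632 in all 26 pairs, and a block by number was run. Pairs with different numbers were not compared. A shift of the arrays numbered 1 alone can give the arrays numbered 2 and 3 a shared deviation. The pairing comes from the data, and these values do not show that the number itself marks it. Alternatives were median centring, quantile normalization, a background filter, other fits and priors, leaving out arrays, and, added after the data were seen, a block by array set. On simulated data of 19505 genes, 75% (2 weeks) to 85% (4 weeks) of simulated 4-fold changes and 25% (2 weeks) to 38.8% (7 days) of 2-fold changes were recovered. The simulated noise was independent between arrays and had no array set effect. Few genes were changed, each by the same amount at every time after MI, so recovery on the real arrays may differ.

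The genes, roles and lists were chosen with earlier results of these data known. Members called in a comparison are named with every array; of the others at most 2 per role, those with the largest difference, are named, and of each other list at most 4 genes called, with all ligands and receptors. Genes that a block called are named too, as are Oas1b, Oas1c and Oas1g, and all of these were chosen after their values were seen. Promoter letters were searched in the RefSeq windows. The table held no column of another sample.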

Additional observations from a re-analysis of the deposited data

Results flagged for a closer look

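Differences between neighbouring times after MI that passed the test, where both times are set against the same uninjured arrays, were as follows. Bst2 was 1.76 higher at 7 days than at 3 days on the log2 scale (limma adjusted p = 0.0282). Tlr7 was 2.05 higher at 7 than at 3 days, close to the threshold (adjusted p = 0.0498), and Tor3a was 0.8 higher (adjusted p = 0.0142). Ptpn2 fell by 1.71 at 7 days relative to 3 days (adjusted p = 0.0189) and Ifi204 fell by 1.52 (adjusted p = 0.00674). Sting1 fell by 1.74 at 2 weeks relative to 7 days (adjusted p = 0.0128). No group had more than 3 arrays, so single arrays were not tested as outliers.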

How the results depend on the processing

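Of 26 calls of members in the 7 comparisons, 14 held under all 25 alternatives and 12 were lost under at least 1, and no called value changed sign under any. Of the 42 members, 9 were called at 3 days, 8 at 7 days, 4 at 2 weeks, 4 at 4 weeks, 1 between 7 and 3 days, 0 between 2 weeks and 7 days, 0 between 4 and 2 weeks, 5 between 4 weeks and 3 days and 10 by the F test. The replicate block gave 7 at 2 weeks, 2 between 7 and 3 days and 4 between 2 weeks and 7 days; it also called Ifi35 and Trim25 between 4 weeks and 3 days and raised the F test count to 15 with Oas1a, Isg15, Ifi27, Rtp4 and Gbp3, and it changed no other call of a member than these and those named with it above. The block by array set gave 7, 2 and 4 in the same comparisons and 8 between 4 weeks and 3 days. Without the 5 arrays numbered 1 the counts were 10 at 2 weeks, 4 between 2 weeks and 7 days and 16 by the F test. The Y-linked block gave 2 at 2 weeks and 1 between 2 weeks and 7 days. Without moderation 2 members were called at 2 weeks, 1 at 4 weeks, 0 between 7 and 3 days and 2 between 4 weeks and 3 days. Calls of Ifitm1, Ifi35, Bst2, Iigp1, Irgm1 and Cmpk2 were among those lost without moderation, beside the losses on removal of an array given with each gene. Fitting only the 2 groups gave 0 between 7 and 3 days, and quantile normalization and the background filter each 1 between 2 weeks and 7 days. Leaving out 1 array gave 7 to 11 calls at 3 days, 7 to 9 at 7 days, 1 to 9 at 2 weeks, 1 to 4 at 4 weeks, 0 to 1 between 7 and 3 days, 0 to 2 between 2 weeks and 7 days, 0 to 0 between 4 and 2 weeks, 2 to 5 between 4 weeks and 3 days and 8 to 12 by the F test. At 2 weeks 1 call was left after removal of either 2-week array, 9 were made when uninjured replicate 1 was left out and 2 when uninjured replicate 2 or 3 was. At 4 weeks 1 call was left without uninjured replicate 2 and 2 without uninjured replicate 3. The causes were not tested. Signal near background limits what can be said of Mx1, Oas1a, Oas2, Oas3, Oasl1, Rsad2, Cgas, Socs1 and Tlr7, and 2 arrays at 2 weeks limit that group.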
